A study of Mus musculus with 6 samples.

Results

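The 10 genes described are blood stem cell regulators, read in sorted mouse cells with and without 1 mutant Mecom allele: Gata2, the other 6 factors of the stem cell heptad (Tal1, Lyl1, Lmo2, Runx1, Fli1 and Erg), the second GATA factor of blood, Gata1, and the cofactors Ldb1 and Zfpm1. They were taken by symbol from the 18465 genes listed in the deposited table, and all 10 were found and passed the filter on low values. RNA came from SLAM-LSK cells of C57BL/6 bone marrow, a fraction gated on CD150, Sca-1 and c-Kit and against CD48 and lineage markers. The groups were wild type (WT, 3 libraries) and mice with 1 wild-type and 1 R751W allele of Mecom (MecomWT:R751W, 3 libraries), and no age, sex or treatment is used here. The labels call the libraries biological replicates without saying whether each came from its own animal, and the p-values rest on the spread among these libraries. Levels are TPM, which corrects reads for the length of each gene and for depth, so that levels of different genes can be set side by side.

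The heptad factors bind together at regulatory regions of blood stem and progenitor cells, many of them at each other's genes. GATA2 and GATA1 bind the same DNA word, and GATA1 displaces GATA2 as cells enter the erythroid and megakaryocytic lineages. TAL1 and LYL1 are related basic helix-loop-helix factors that dimerise with E proteins, LMO2 bridges them to the GATA factor, and LDB1 joins such complexes to one another. RUNX1 binds with the partner CBFB, FLI1 and ERG are closely related ETS factors, and FOG1, the product of Zfpm1, docks on the GATA zinc finger. The title of the series names a functional competition of MECOM with GATA2, so the level of Gata2 and of its partners in cells with a mutant Mecom allele is the comparison the design offers. These are RNA levels, which do not measure a competition between the proteins, and that competition was not tested.

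Promoters are shown because the complex is known to bind at its members' own genes. RefSeq (GRCm38.p6, the assembly of mm10) gave 15 windows of 300 bases for 8 of the members, each with 250 bases before and 50 after an annotated start. No window was held for Lmo2 or Fli1. For each of the 8 members, the window with the most words of the complex's own factors is shown. On both strands, the GATA words searched were AGATAA, besides it TGATAA, further the word AGATAG and likewise the word TGATAG. The E-box words were CAGATG together with CAGCTG, the ETS words were CCGGAA together with CAGGAA, and the RUNX words were TGTGGT together with TGCGGT. They are in capitals below, no matches overlapped, and each sequence reads 5′ to 3′ along the strand of its gene.
Zfpm1, chr8:122281891-122282190, plus strand: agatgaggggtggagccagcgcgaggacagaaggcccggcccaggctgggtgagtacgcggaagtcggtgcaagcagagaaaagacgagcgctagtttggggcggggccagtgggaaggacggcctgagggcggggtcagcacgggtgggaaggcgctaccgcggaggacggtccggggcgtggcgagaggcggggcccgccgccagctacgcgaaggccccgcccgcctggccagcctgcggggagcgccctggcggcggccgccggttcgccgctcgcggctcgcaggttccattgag
Gata2 (downstream start), chr6:88198414-88198713, plus strand: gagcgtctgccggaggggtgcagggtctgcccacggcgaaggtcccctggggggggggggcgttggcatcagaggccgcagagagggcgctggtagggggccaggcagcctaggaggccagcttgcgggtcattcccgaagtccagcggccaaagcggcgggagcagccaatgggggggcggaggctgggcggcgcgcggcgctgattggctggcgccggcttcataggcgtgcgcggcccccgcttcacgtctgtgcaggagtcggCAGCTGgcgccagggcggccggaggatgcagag
Gata1, chrX:7967861-7968160, minus strand: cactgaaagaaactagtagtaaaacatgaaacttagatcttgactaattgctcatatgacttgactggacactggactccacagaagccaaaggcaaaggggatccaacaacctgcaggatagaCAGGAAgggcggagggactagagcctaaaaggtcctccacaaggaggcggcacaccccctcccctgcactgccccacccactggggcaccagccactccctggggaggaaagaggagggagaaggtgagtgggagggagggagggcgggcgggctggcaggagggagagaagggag
Tal1 (first start), chr4:115056176-115056475, plus strand: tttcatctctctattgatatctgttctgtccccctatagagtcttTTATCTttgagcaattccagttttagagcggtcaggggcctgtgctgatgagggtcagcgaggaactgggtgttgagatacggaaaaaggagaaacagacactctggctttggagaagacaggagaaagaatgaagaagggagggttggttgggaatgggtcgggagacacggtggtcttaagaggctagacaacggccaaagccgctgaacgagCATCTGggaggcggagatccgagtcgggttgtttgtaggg
Lyl1, chr8:84701207-84701506, plus strand: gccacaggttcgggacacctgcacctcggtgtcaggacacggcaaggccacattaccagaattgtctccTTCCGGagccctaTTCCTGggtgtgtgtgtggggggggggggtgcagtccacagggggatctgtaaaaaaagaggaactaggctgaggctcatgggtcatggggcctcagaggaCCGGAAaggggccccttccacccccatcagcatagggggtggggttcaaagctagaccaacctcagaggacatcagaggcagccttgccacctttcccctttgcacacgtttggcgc
Runx1 (upstream start), chr16:92826025-92826324, minus strand: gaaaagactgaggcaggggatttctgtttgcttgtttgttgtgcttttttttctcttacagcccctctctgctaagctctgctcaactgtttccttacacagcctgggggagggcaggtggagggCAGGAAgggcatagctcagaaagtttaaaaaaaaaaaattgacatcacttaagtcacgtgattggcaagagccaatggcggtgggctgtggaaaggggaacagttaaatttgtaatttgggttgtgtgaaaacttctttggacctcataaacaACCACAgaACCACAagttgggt
Erg (most downstream start), chr16:95459299-95459598, minus strand: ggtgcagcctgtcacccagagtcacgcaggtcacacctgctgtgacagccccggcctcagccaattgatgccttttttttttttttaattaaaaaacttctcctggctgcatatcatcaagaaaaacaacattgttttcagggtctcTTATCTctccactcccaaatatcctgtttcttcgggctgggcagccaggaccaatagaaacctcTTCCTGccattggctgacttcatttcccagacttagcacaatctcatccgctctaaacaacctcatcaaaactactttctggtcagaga
Ldb1 (most downstream start), chr19:46037021-46037320, minus strand: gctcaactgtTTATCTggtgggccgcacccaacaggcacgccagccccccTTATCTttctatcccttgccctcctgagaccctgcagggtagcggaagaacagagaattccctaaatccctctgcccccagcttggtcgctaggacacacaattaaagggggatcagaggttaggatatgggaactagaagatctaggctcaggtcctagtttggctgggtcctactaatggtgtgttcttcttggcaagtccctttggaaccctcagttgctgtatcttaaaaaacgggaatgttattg

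The Zfpm1 window on chromosome 8 held none of the words and was 73.7% G and C. Gata2 has a pair of starts on chromosome 6, and the window of the downstream one, shown above, held 1 CAGCTG, while the upstream one held no word. The Gata1 window on chromosome X held 1 ETS word. The first Tal1 window on chromosome 4 held an AGATAA and a CAGATG, each on the other strand. Lyl1, on chromosome 8, held 3 ETS words, more than any other member window. The window at the upstream Runx1 start on chromosome 16 held 2 RUNX words within the first 50 transcribed bases, and 1 ETS word before them. The Erg window shown, at the most downstream of 3 starts on chromosome 16, held 1 AGATAA and 1 CAGGAA, both on the other strand. The Ldb1 window shown, likewise at the most downstream of 3 starts, on chromosome 19, held 2 AGATAA on the other strand. Among the 15 windows, 3 held a GATA word, 2 an E-box, 5 an ETS word and 1 a RUNX word. Of all 32851 promoter windows of the same length, 29.8% held a GATA word, 30.6% an E-box, 41.4% an ETS word and 22.4% a RUNX word. A match is a run of letters and not a measured binding site.

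The order of levels was set by Lmo2 at the top and Gata1 at the bottom. Lmo2 averaged 281 TPM over the 6 libraries, Gata2 121, Zfpm1 120.3, Fli1 59.7, Runx1 37.7, Tal1 34.8, Lyl1 30.8, Erg 28.8, Ldb1 28.01 and Gata1 8.85. The ranges of neighbours were separate between Lmo2 and Gata2, between Zfpm1 and Fli1, between Fli1 and Runx1 and between Ldb1 and Gata1. Gata2 and Zfpm1 could not be ordered, with Gata2 higher in 3 of the 6 libraries, and neighbours from Runx1 down to Ldb1 overlapped. The mean of Lmo2 was at or above that of 99.3% of the 12552 protein-coding genes listed, that of Gata2 97.8% and that of Gata1 47.8%. Whole reads implied by the table numbered 4926 to 6133 per library for Lmo2, 2974 to 3688 for Gata2, 348 to 564 for Lyl1 and 120 to 182 for Gata1, so Gata1 carries the widest counting error.

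**Figure D1:**
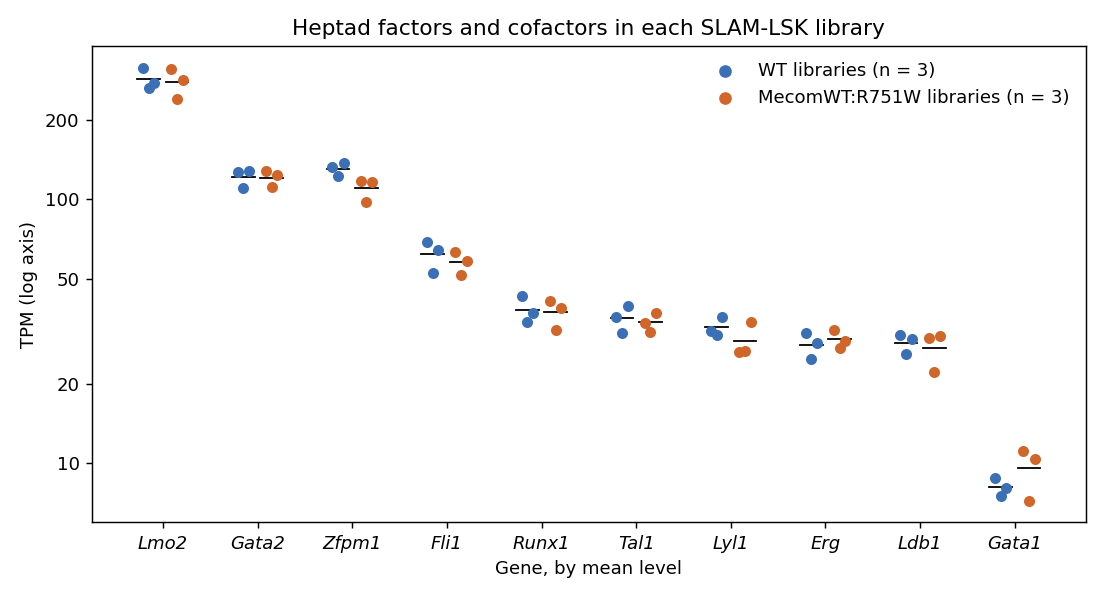
TPM (log axis) of the 10 genes, in order of mean level, in the 3 WT (blue) and 3 MecomWT:R751W (orange) libraries, with a bar at each group mean. The orange and blue points overlap for every gene but Zfpm1, whose highest MecomWT:R751W value of 117 TPM lies under its lowest WT value of 122 TPM.

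Gata2, needed for stem cells to form and persist, showed no difference between the genotypes beyond its spread. In replicates 1, 2 and 3 it was read at 126, 111 and 128 TPM in WT, and at 128, 111 and 123 TPM in MecomWT:R751W. Replicate 2 was the lowest library in both groups, and the groups overlapped throughout. The means were 122 ± 9.64 and 121 ± 8.48 TPM (SD, n = 3), and the log2 fold change on the log2(TPM + 1) scale was -0.01 (standard error, SE, 0.12). With limma fitted over the 16655 genes whose mean reached 1 TPM, the Benjamini-Hochberg adjusted p was 1.000 and the 95% interval ran from -0.27 to 0.25, that is, from 0.827 to 1.19 times the WT level. That fit called 0.00% of all genes at an adjusted p under 0.05, and 5.97% had an unadjusted p under 0.05 (995 genes), while 0 of the 10 members did in either case. Over the 11394 protein-coding rows alone those shares were 1.16% and 7.67%, again with no member called.

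Part of the spread among libraries was shared by most genes. Protein-coding rows took 25.9% of TPM in WT replicate 2 and 26.02% in MecomWT:R751W replicate 2, against 28.9% to 30.1% in the other 4. After TPM was rescaled to the protein-coding total of each library, Gata2 stood at 419, 427 and 443 in WT and at 429.9, 428 and 426 in MecomWT:R751W. Its coefficient of variation over the 6 libraries was 6.71% as deposited and 1.85% after rescaling, the lowest of the members. The 95% interval of its log2 fold change narrowed to -0.14 to 0.13. The median coefficient of variation of the 10 members was 11.2% before and 5.98% after rescaling.

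Gata1, which drives erythroid and megakaryocytic genes, was the least abundant member and one of 2 with a value above 0. It was at 8.82, 7.53 and 8.04 TPM in WT and at 11.1, 7.22 and 10.4 TPM in MecomWT:R751W. MecomWT:R751W replicates 1 and 3 were above all WT libraries and replicate 2 was below them. The log2 fold change was 0.19 (SE 0.18, 95% interval -0.19 to 0.58) and was not called by limma (adjusted p = 1.000). It was 0.09 without MecomWT:R751W replicate 1 and 0.36 without MecomWT:R751W replicate 2.

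The scaffold of the complex did not differ beyond its spread. Lmo2 was at 315, 264 and 276 TPM in WT and at 309.5, 240.1 and 283 TPM in MecomWT:R751W, with a log2 fold change of -0.04 (SE 0.13). Ldb1 was at 30.5, 25.9 and 29.5 TPM in WT and at 29.7, 22.1 and 30.3 TPM in MecomWT:R751W, with -0.07 (SE 0.15). Both were lowest in replicate 2 of each group, and in both genes the groups overlapped. Signs this close to 0 turned without single libraries, to 0.06 for Lmo2 and 0.07 for Ldb1 without MecomWT:R751W replicate 2, where the median of all genes was 0.05.

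The basic helix-loop-helix pair was also within its spread. Tal1, needed to form blood stem cells, was at 35.6, 31.2 and 39.2 TPM in WT and at 34.1, 31.4 and 37.1 TPM in MecomWT:R751W, with a log2 fold change of -0.04 (SE 0.14). Its paralog Lyl1 was at 31.7, 30.5 and 35.8 TPM in WT and at 26.3, 26.5 and 34.2 TPM in MecomWT:R751W. MecomWT:R751W replicates 1 and 2 of Lyl1 lay under all WT libraries and replicate 3 did not. The log2 fold change of Lyl1 was -0.17 (SE 0.14, 95% interval -0.48 to 0.14, adjusted p = 1.000 by limma).

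Runx1 and the ETS factors gave small values of either sign. Runx1 was at 43.0, 34.2 and 37.1 TPM in WT and at 41.1, 31.9 and 38.8 TPM in MecomWT:R751W, a log2 fold change of -0.03 (SE 0.14). Fli1, a factor of stem cells, megakaryocytes and endothelium, was at 68.6, 52.4 and 64.2 TPM in WT and at 63.0, 51.7 and 58.3 TPM in MecomWT:R751W, a log2 fold change of -0.09 (SE 0.14). Erg, which stem cells need for self-renewal, was at 31.1, 24.8 and 28.4 TPM in WT and at 32.0, 27.4 and 28.9 TPM in MecomWT:R751W, a log2 fold change of 0.07 (SE 0.14). All 3 overlapped between genotypes, and each was lowest in replicate 2 of its group.

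Zfpm1 was the member that separated by genotype. FOG1, its product, binds GATA factors and recruits the NuRD complex. It was at 132, 122 and 137 TPM in WT and at 117, 97.4 and 116 TPM in MecomWT:R751W, so every MecomWT:R751W library lay under every WT library. The means were 131 ± 7.95 and 110.1 ± 10.9 TPM (SD, n = 3), 15.7% lower in MecomWT:R751W, and the log2 fold change was -0.25 (SE 0.12). Limma over all genes did not call it (adjusted p = 0.905, unadjusted p = 0.0684). Its exact permutation test, two-sided, gave p = 0.1, the smallest that 3 against 3 libraries can give. Groups did not overlap in 9.19% of all genes tested, and in 4.70% with MecomWT:R751W the lower, so 1 of 10 members is near the background.

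Rescaling to the protein-coding total sharpened the Zfpm1 value without a call. On that scale Zfpm1 stood at 439.8, 471 and 476 in WT and at 393, 374 and 402 in MecomWT:R751W, and the groups were again separate, beside 8.63% of genes separate in that direction on that scale. The log2 fold change was -0.25 (SE 0.07, 95% interval -0.39 to -0.10) with an unadjusted p of 0.00397 and an adjusted p of 0.207 by limma, where 11.0% of 12394 genes had an unadjusted p under 0.05 and 0.137% were called. With limma-voom on the implied reads the adjusted p was 0.191. The value without 1 library ranged from -0.30 to -0.16 on the deposited scale, the latter without MecomWT:R751W replicate 2.

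**Figure D2:**
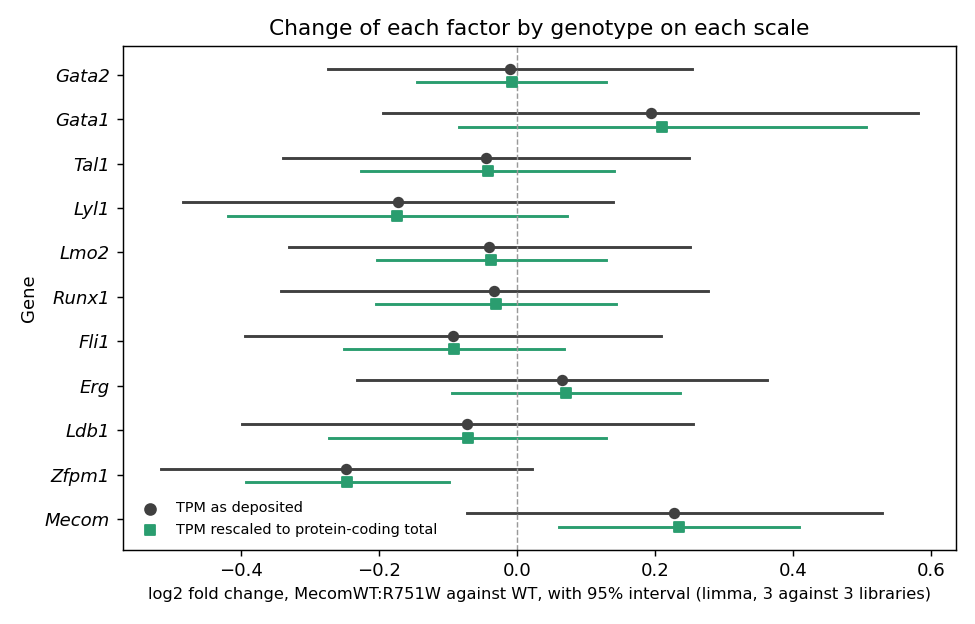
Log2 fold change of MecomWT:R751W against WT with its 95% interval from limma, for the 10 genes and Mecom, on TPM as deposited (grey circles) and after rescaling to the protein-coding total (green squares). The point estimates hardly move between the scales while the intervals narrow, and on the rescaled scale those of Zfpm1 (-0.39 to -0.10) and Mecom (0.06 to 0.41) leave out 0. Neither was called by limma on that scale (adjusted p = 0.207 and 0.285), where 11.0% of genes had an unadjusted p under 0.05.

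Across the 10 members, 8 log2 fold changes were below 0 and 2 above, with a median of -0.04 beside -0.004 over all genes tested, of which 51.0% were below 0. After rescaling the medians were -0.04 and -0.007. The 95% intervals of the 10 members spanned 0.699 to 1.496 times the WT level on the deposited scale, and differences inside a member's interval were not excluded with 3 libraries per group.

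The make-up of the heptad was alike in all 6 libraries. The 7 factors summed to 651, 548 and 608 TPM in WT and to 634, 520.3 and 604 TPM in MecomWT:R751W. Lmo2 supplied 45.3% to 48.8% of that sum, Gata2 19.4% to 21.4%, Fli1 9.57% to 10.6%, Runx1 6.10% to 6.603%, Tal1 5.37% to 6.45% and Lyl1 4.15% to 5.88%. Erg supplied 4.78%, 4.53% and 4.67% in WT and 5.04%, 5.26% and 4.79% in MecomWT:R751W. Of the 7 shares, that of Erg alone did not overlap between the genotypes, and its nearest values, 4.79% and 4.78%, almost met. No background was computed for such shares. Among ratios of Erg to another protein-coding gene 17.1% did not overlap, so this separation does not set Erg apart.

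**Figure D3:**
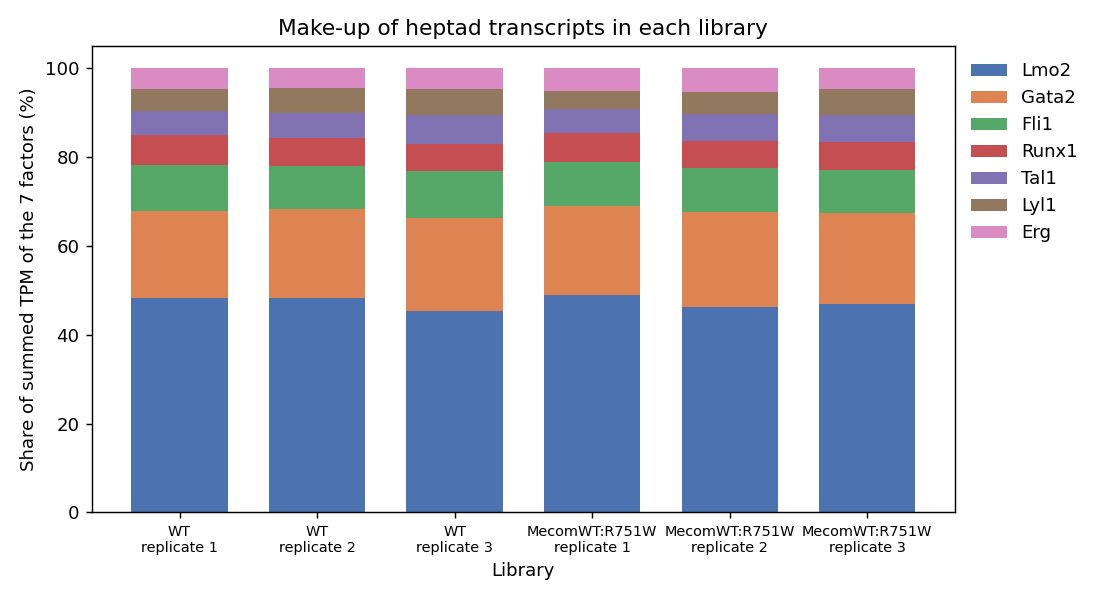
Share (%) of the summed TPM of the 7 heptad factors held by each factor in each library, stacked to 100%. Lmo2 (45.3% to 48.8%) and Gata2 (19.4% to 21.4%) make up most of every bar, and the bars of the genotypes are alike.

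Ratios between partners within a library do not move with the scaling of that library. For 12 ratios of partners or paralogs, differences of mean log2 ratio were tested by exact two-sided permutation, where 3 against 3 libraries cannot go below p = 0.1. The ratio of Gata2 to Gata1 was 14.3, 14.7 and 15.9 in WT and 11.5, 15.4 and 11.8 in MecomWT:R751W. Replicates 1 and 3 of MecomWT:R751W lay under all WT libraries and replicate 2 lay among them. The difference of -0.22 in log2 (SE 0.14) had an exact permutation p of 0.3.

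Of the 12 ratios 4 separated the genotypes, a pair of them ratios to Zfpm1. Gata2 to Zfpm1 was 0.954, 0.908 and 0.932 in WT and 1.095, 1.14 and 1.06 in MecomWT:R751W, so Zfpm1 exceeded Gata2 in all 3 WT libraries and Gata2 exceeded Zfpm1 in all 3 MecomWT:R751W libraries. The difference was 0.24 in log2 (SE 0.04), a change of 18.01%. Gata1 to Zfpm1 was 0.0666, 0.0618 and 0.0585 in WT and 0.0951, 0.0741 and 0.0895 in MecomWT:R751W, a difference of 0.46 (SE 0.12). Erg to Fli1 was 0.454, 0.473 and 0.443 in WT and 0.507, 0.530 and 0.495 in MecomWT:R751W, a difference of 0.16 (SE 0.04). The ETS paralogs thus kept Fli1 the higher in every library, by a smaller margin in MecomWT:R751W.

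Gata2 to Mecom was the last of these ratios. Mecom, the gene that carries the allele, was at 42.9, 34.9 and 36.9 TPM in WT and, overlapping with these, at 50.9, 39.9 and 44.0 TPM in MecomWT:R751W, and a gene total does not separate its alleles. Gata2 to Mecom was 2.94, 3.17 and 3.47 in WT and 2.51, 2.79 and 2.79 in MecomWT:R751W, a difference of -0.24 (SE 0.09), or -15.5%. Each of the 4 ratios had the smallest exact permutation p that can be had, 0.1, and a Benjamini-Hochberg value of 0.3 over the 12. For comparison, 17.1% of all pairs of protein-coding genes did not overlap. Of the ratios of Gata2 to each other protein-coding gene 15.7% did not overlap, of those of Mecom 38.0%, of Erg 17.1% and of Fli1 18.5%. After rescaling to the protein-coding total, Mecom itself did not overlap between the genotypes and Gata2 did. On that scale 16.2% of genes did not overlap, and limma did not call Mecom (adjusted p = 0.285).

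The other 8 ratios overlapped. Tal1 to Lyl1 ran from 1.02 to 1.30 over the 6 libraries (difference 0.13, SE 0.09), so Tal1 exceeded Lyl1 in all of them. Lmo2 to Ldb1 ran from 9.34 to 10.9 (0.03, SE 0.08), Tal1 to Lmo2 from 0.110 to 0.142 (-0.01, SE 0.13) and Lyl1 to Lmo2 from 0.0849 to 0.130 (-0.14, SE 0.19). Gata2 to Lmo2 ran from 0.401 to 0.465 (0.03, SE 0.08), Gata2 to Runx1 from 2.94 to 3.48 (0.02, SE 0.08) and Fli1 to Runx1 from 1.502 to 1.73 (-0.06, SE 0.06). The exact permutation p-values of these 7 ranged from 0.3 to 1.

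**Figure D4:**
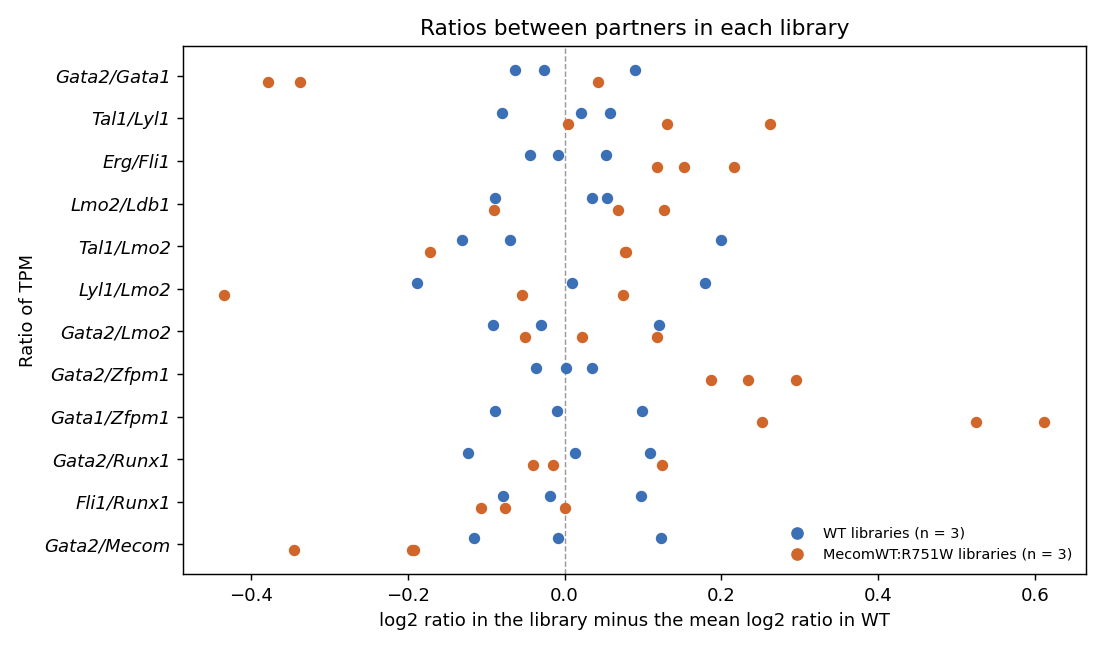
Log2 ratio of 2 genes' TPM in each library, minus the mean log2 ratio in WT, for the 12 ratios (WT blue, MecomWT:R751W orange). The colours separate for Erg/Fli1, Gata2/Zfpm1, Gata1/Zfpm1 and Gata2/Mecom and mix for the other 8.

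Over all 45 pairs that the 10 members form, 10 ratios (22.2%) did not overlap between genotypes, beside 17.1% of all pairs of protein-coding genes. Of these 10, 6 were ratios to Zfpm1, out of the 9 pairs that include it. Among ratios of Zfpm1 to each other protein-coding gene 44.3% did not overlap, beside 22.9% for Gata1, 17.1% for Erg, 14% for Tal1, 13.6% for Runx1 and 13.2% for Lmo2, so separate ratios to Zfpm1 were common whatever the other gene. Erg to Zfpm1 was 0.204 to 0.235 in WT and 0.249 to 0.281 in MecomWT:R751W. Its log2 difference (0.32) was the largest among the pairs not yet described that did not overlap. Runx1 to Zfpm1 was 0.270 to 0.325 in WT and 0.328 to 0.352 in MecomWT:R751W. Gata1 to Ldb1 was 0.273 to 0.290 in WT and 0.326 to 0.374 in MecomWT:R751W, and the log2 differences of Gata1 to Lmo2 and of Gata1 to Runx1 were both 0.25. Tal1 and Lmo2 to Zfpm1, named after their values were seen, had smaller differences of 0.20 and 0.21. The steadiest pair was Lmo2 to Runx1, with an SD of 0.03 in log2 over the 6 libraries, and the most variable was Gata1 to Lyl1, with 0.32.

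**Figure D5:**
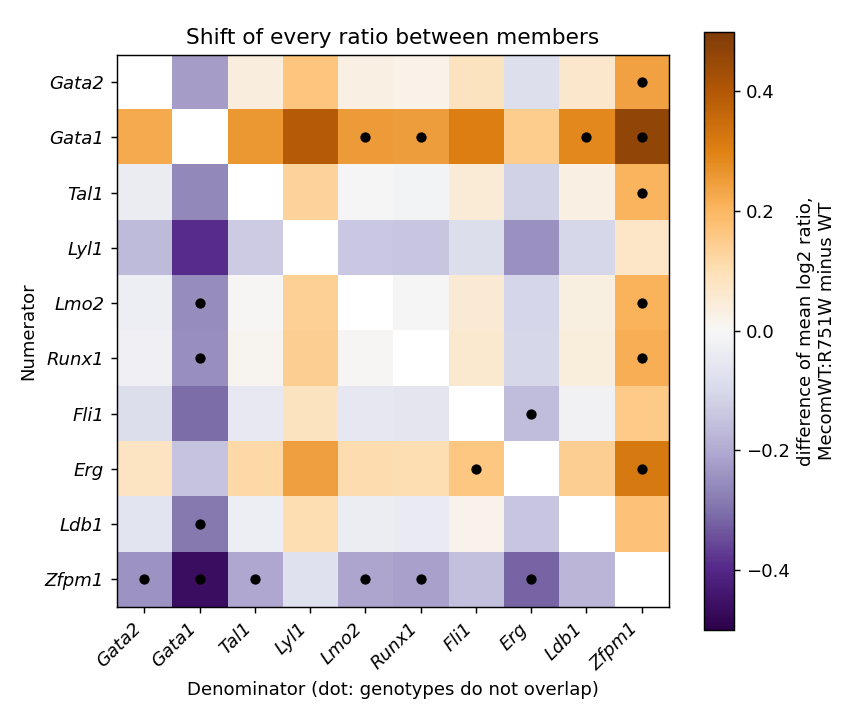
Difference of mean log2 ratio, MecomWT:R751W minus WT, for every pair of the 10 genes (row over column), with a dot where the 3 MecomWT:R751W and 3 WT values do not overlap. The dots fall in the Zfpm1 row and column, the Gata1 row and column, and at Erg with Fli1.

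Genes that overlap a member or lie within 10 kb of it were read as well. RefSeq placed 17 such genes, of which 11 were in the table. No source used here gives the strand setting of the counting, so reads of overlapping genes cannot be told apart. Gm38708, a non-coding gene whose span overlaps the 5′ part of Gata2, was at 3.09, 3.22 and 3.90 TPM in WT and at 4.78, 4.06 and 4.63 TPM in MecomWT:R751W. Its groups did not overlap, as was so for 9.19% of all genes tested. Limma did not call its log2 fold change of 0.32 (SE 0.18, adjusted p = 0.930). At Zfpm1, the non-coding Gm46056, which lies 5779 bases past its end, was at 19.2, 22.2 and 23.3 TPM in WT and at 16.8, 16.4 and 21.5 TPM in MecomWT:R751W, a log2 fold change of -0.24 (SE 0.15), and the groups overlapped. Gm39269, which overlaps the start of Zfpm1, stood at -0.03 (SE 0.19). Within Lmo2, Gm38515 averaged 69.4 ± 6.42 TPM (SD, n = 3) in WT libraries and 73.8 ± 5.81 TPM in the others, a log2 fold change of 0.09 (SE 0.13). The other neighbours overlapped between the genotypes. Log2 fold changes were 0.32 (SE 0.26) for Gm33786 within Tal1, -0.06 (SE 0.17) for Gm30281 within Runx1, 0.01 (SE 0.32) for the small nuclear RNA Gm22060 within Fli1 and -0.05 (SE 0.14) for Pprc1 near Ldb1. On either side of Lyl1, Trmt1 stood at -0.09 (SE 0.16) and Nfix, whose end overlaps that of Lyl1 by 5 bases, at 0.02 (SE 0.15). Zfp469 was under the filter, at 0.266 TPM or less.

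Most relatives of the members were not listed. Of 14 family relatives, 6 were listed and 5 tested, and 0 passed limma's adjusted threshold. An unadjusted p under 0.05 was found for 1 of the 5, beside 5.97% of all genes. The median log2 fold change was 0.18, with 3 above 0 and 2 below. That median turned negative when MecomWT:R751W replicate 3 was left out (-0.13). Without WT replicate 2, Ldb2 also passed the filter, and the median that included it was -0.03. Gata3 (0.068), Lmo1 (0.14) and Runx2 (0.19) stayed above 0 in that run. Gata4, Gata5, Gata6, Tal2, Nhlh1, Lmo3, Fev and Zfpm2 were not in the table, and Ldb2 was under the filter. Runx3, a relative of Runx1 that acts in lymphoid cells, averaged 10.5 ± 1.58 TPM in WT and, lower in every library, 7.28 ± 0.625 TPM in MecomWT:R751W (SD, n = 3). Its log2 fold change was -0.47 (SE 0.16, adjusted p = 0.652 by limma). Runx3 was the 1 of the 5 tested whose groups did not overlap, where 9.19% of all genes did not, and 4.70% with MecomWT:R751W lower. Runx2, the skeletal relative, stood at 0.26 (SE 0.14), Gata3, a factor of T cells and of stem cells, at 0.20 (SE 0.17) and Lmo1 at 0.18 (SE 0.26).

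Partners and cofactors gave no call by limma either, and 1 had an unadjusted p under 0.05, beside 5.97% of all genes. Of 26 listed genes 25 were tested, 14 above 0 and 11 below, with a median of 0.01 (-0.05 to 0.09 when 1 library was left out). Beside 9.19% of all genes separate in either direction and 4.70% with MecomWT:R751W lower, 2 of the 25 did not overlap between genotypes, both lower in MecomWT:R751W. They were Gfi1b, a repressor of erythroid and megakaryocytic cells (11.5 ± 2.42 and 8.35 ± 1.21 TPM, -0.41, SE 0.18), and Hdac1, a histone deacetylase (11.8 ± 0.524 and 9.78 ± 0.755 TPM, -0.25, SE 0.15; SD, n = 3). Cbfa2t3, the corepressor ETO2 of the TAL1 complex, stood at -0.23 (SE 0.15) and Hdac3 at 0.18 (SE 0.14). The adjusted p-values of these 4 by limma ranged from 0.797 to 1.000.

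Known target genes of the complex in stem and progenitor cells gave more values below 0 than above. Limma called 0, and 4 of 21 had an unadjusted p under 0.05, beside 5.97% of all genes. Of 22 genes 21 were tested, 6 above 0 and 15 below, with a median of -0.10, beside -0.004 over all genes, and 2 were separate with MecomWT:R751W higher and 3 with it lower, where 9.19% of all genes were separate and 4.70% with MecomWT:R751W lower. The median was -0.22 without MecomWT:R751W replicate 1, -0.16 without WT replicate 2, -0.03 without MecomWT:R751W replicate 2 and -0.03 without WT replicate 1, so its size rests on single libraries. In the same runs the median of all genes was -0.031, -0.065, 0.053 and 0.033, and so moved in the same direction each time. Samd14, a GATA2 target that aids c-Kit signalling, was at 4.06, 3.96 and 5.23 TPM in WT and at 6.66, 6.26 and 5.44 TPM in MecomWT:R751W (0.40, SE 0.17, adjusted p = 0.797 by limma). Gpr65, a proton-sensing receptor, was at 8.26, 7.37 and 7.86 TPM in WT and at 15.05, 8.53 and 10.1 TPM in MecomWT:R751W (0.43, SE 0.19, adjusted p = 0.803 by limma), and stood at 0.22 without MecomWT:R751W replicate 1. Gfi1b, given above, is also on this list.

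Erythroid genes that GATA1 activates gave more values above 0 than below, and those that stood out were at low levels. Of 24 genes 18 were tested, 14 above 0 and 4 below, with a median of 0.21. It was 0.11 without WT replicate 3, 0.34 without WT replicate 1 and 0.05 over genes averaging 5 TPM or more. Each of these medians is over the listed genes that passed the filter in that run. Limma over all rows called 0, with 5 at an unadjusted p under 0.05 (5.97% of all genes), and over the 11394 protein-coding rows alone, where 1.16% of genes were called, it called 4, Klf1, Rhd, Ermap and Car1. After rescaling to the protein-coding total it called 0 of the list. On the deposited scale 5 genes of the list were separate with MecomWT:R751W higher and 1 with it lower. Of all genes 9.19% were separate in either direction and 4.70% with MecomWT:R751W lower. The lower gene was Epb42, whose mean fell from 1.29 to 0.745 TPM (-0.40, SE 0.20). Tspan33 also stood below 0 (-0.39, SE 0.23), with groups that overlapped. Klf1, the erythroid master factor, was at 2.53, 1.15 and 1.74 TPM in WT and at 4.88, 4.85 and 2.74 TPM in MecomWT:R751W (adjusted p = 0.431 over all rows and 0.00529 over protein-coding rows, limma). Rhd was at 0.690 ± 0.0943 and 2.34 ± 0.676 TPM and Ermap at 0.773 ± 0.453 and 2.58 ± 0.693 TPM (SD, n = 3). The WT means of Rhd, Ermap, Car1 (0.829 TPM) and Sptb (0.679 TPM, also separate and higher) were under 1 TPM. These genes passed the filter only through MecomWT:R751W, and Epb42 only through WT. Their calls and their place in the counts of this list thus depended on the group where they were high. Car1, a carbonic anhydrase of red cells, was at 1.095, 0.833 and 0.558 TPM in WT and at 1.71, 8.93 and 2.69 TPM in MecomWT:R751W, and its log2 fold change was 1.35. It was 0.80 without MecomWT:R751W replicate 2, and 1.74 and called over all rows (adjusted p = 0.0375 by limma) without MecomWT:R751W replicate 1.

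Of 10 markers of committed erythroid cells 6 were listed, and all 6 also belong to the GATA1-activated list, so they give no separate reading of it. Their sum was 14.7 to 21.4 TPM in WT and 22.8 to 26.3 TPM in MecomWT:R751W. Klf1 alone of the 6 did not overlap between the genotypes, and with it left out the sums overlapped, at 12.985 to 20.3 TPM in WT and 20.1 to 21.4 TPM in MecomWT:R751W. Slc4a1, Ahsp and Hba-a2 were among those not in the table. In bulk samples more cells of a type and more RNA per cell cannot be told apart, and the part of such cells in the Gata1 and Klf1 values was not tested. Summed markers of T and NK cells were 7.29 to 8.59 TPM in WT and 16.0 to 18.8 TPM in MecomWT:R751W with 4 of 8 genes listed, and Cd3e, Cd3d, Cd3g and Cd8a were not in the table. With Nkg7 left out they overlapped, at 3.22 to 4.30 TPM in WT and 4.13 to 6.69 TPM in MecomWT:R751W. Both sums with a gene left out were chosen after seeing the data. Cd48, which the gate excludes, was at 1.02 to 2.18 TPM in WT and 2.27 to 4.10 TPM in MecomWT:R751W. Endothelial cells share Fli1, Erg, Tal1 and Lmo2 with stem cells. The 6 endothelial markers listed summed to 89.4 to 109 TPM in WT and, overlapping, 101.9 to 124 TPM in MecomWT:R751W, and Cdh5 and Cldn5 were not in the table. Esam, Egfl7, Vwf and Emcn gave most of that sum. Kdr and Plvap averaged 0.843 and 1.11 TPM in WT and 0.976 and 0.349 TPM in MecomWT:R751W. Taken alone, Emcn was separate with MecomWT:R751W higher and Plvap with it lower. Of all genes tested 9.19% were separate in either direction and 4.70% with MecomWT:R751W lower. The same background stands beside Klf1 and Cd48 above, and no such share was computed for sums of markers. The part of endothelial cells in the levels of the members was not tested. Stem cell markers, all 7 of them listed, summed to 329.5 to 375 TPM in WT and 326 to 382 TPM in MecomWT:R751W, and the positive gate genes Kit, Ly6a and Slamf1 were listed in every library.

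Most genes of mast cells, whose differentiation the title names, were not in the table. Of 14 genes 3 were in the table, 0 of them with a limma p under 0.05 before or after adjustment, and Fcer1a, Ms4a2, Cma1, Hdc and the tryptase genes Tpsb2 and Tpsab1 were among those not listed. Cpa3, a mast cell protease, was at 0.90, 0.904 and 2.12 TPM in WT and at 1.87, 0.932 and 2.17 TPM in MecomWT:R751W. Mitf, a factor of mast cells and melanocytes, stood at a log2 fold change of -0.07 (SE 0.18) and Srgn, a granule proteoglycan that many blood cells make, at -0.14 (SE 0.16), both with an adjusted p of 1.000 by limma.

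The genes whose pattern over the 6 libraries was most like that of Gata2, among 8476 other protein-coding genes that averaged 5 TPM or more, were Actn4 (Pearson r = 0.997), Sft2d2 (0.997), Smarcc2 (0.996), Heca (0.993) and Ppp6r1 (0.993). These are descriptions over 6 points that share libraries and their protein-coding share, and 8.80% of the genes had an r of at least 0.9. Among the members r with Gata2 was 0.93 for Fli1 and 0.37 for Lyl1. After rescaling to the protein-coding total it was 0.13 for Fli1, 0.67 for Tal1 and -0.51 for Runx1, so most of these likenesses changed with the scale.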

How the data were processed

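RNA of sorted SLAM-LSK cells was sequenced in 6 libraries, 3 per genotype. The authors deposited 1 table of TPM for 18465 genes, which sums to 1000000 in each library. Per the submitters' processing notes, the build was mm10 and DESeq2 was used, with no role stated. No aligner, counter or strand setting is stated in the sources. The labels' protocols list several library kits without saying which was used. Ratios of TPM within genes implied whole reads for 100.0% of genes within 0.001 reads, 10908100 to 12753200 per library. For 154 genes, Lyl1 among them, the smallest solution was multiplied to make the gene length whole. These reads describe depth and enter 1 alternative.

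Genes averaging 1 TPM or more were tested with limma 3.58.1 (R 4.3.3), its variance trend on, using log2(TPM + 1), Benjamini-Hochberg adjusted over all genes, with a threshold of 0.05. A fold change on that scale understates the change of low genes. Ratios used TPM without a pseudocount and exact permutation tests (scipy 1.17.1). The procedures were tested on simulated data. The members, lists, ratios and tests were chosen with earlier results of these data known. Named genes were all members, Mecom, up to 4 genes of smallest unadjusted p per list, neighbours within 10 kb, the 5 genes most like Gata2 and the 5 largest differences among other pairs that did not overlap. Some genes that this rule or the lists name are not reported here. Tested alternatives changed the pseudocount, filter, scaling, rows, variance estimate, library weights, block and libraries.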

Additional observations from a re-analysis of the deposited data

How the results depend on the processing

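No member was called under any alternative run, and the adjusted p of Zfpm1 ranged from 0.191 to 1.00. Counts over all genes, 0 higher and 0 lower as reported, became 1 and 1 with a mean of at least 5 TPM, 40 and 92 over protein-coding rows, 8 and 9 after rescaling to them, 4 and 1 with robust variance moderation, 24 and 29 with voom on implied reads, and 0 and 1 with library weights. Leaving out 1 library gave 0 to 6 higher and 0 to 9 lower, the most higher calls (6, beside 2 lower) when WT replicate 3 was left out and the most lower calls (9, beside 4 higher) when MecomWT:R751W replicate 1 was. Without WT replicate 2 there was 1 in each direction. With library weights Lmo2 turned to 0.028, Runx1 to 0.031 and Gm22060 to -0.16, and Gm22060 also turned to -0.0087 with a pseudocount of 5 and to -0.0057 with voom. The causes were not tested. Without 1 library the log2 fold changes ranged from -0.077 to 0.046 for Gata2, -0.13 to 0.032 for Tal1, -0.12 to 0.061 for Lmo2, -0.10 to 0.072 for Runx1, -0.018 to 0.14 for Erg and -0.15 to 0.069 for Ldb1, and kept their sign for Gata1 (0.09 to 0.36), Lyl1 (-0.29 to -0.11), Fli1 (-0.20 to -0.01) and Zfpm1 (-0.30 to -0.16). They ranged from -0.14 to 0.34 for Lmo1, -0.25 to 0.012 for Srgn, -0.015 to 0.64 for Gm33786, -0.20 to 0.048 for Trmt1, -0.070 to 0.15 for Nfix, -0.23 to 0.078 for Gm30281, -0.49 to 0.34 for Gm22060, -0.14 to 0.0034 for Pprc1 and -0.14 to 0.071 for Gm39269. Ratio differences ranged from -0.011 to 0.10 for Lmo2/Ldb1, -0.071 to 0.094 for Tal1/Lmo2, -0.24 to 0.010 for Lyl1/Lmo2, -0.016 to 0.090 for Gata2/Lmo2 and -0.038 to 0.077 for Gata2/Runx1. Those of the 4 ratios that separated the genotypes kept their sign without any 1 library, from 0.21 to 0.26 for Gata2/Zfpm1, 0.39 to 0.57 for Gata1/Zfpm1, 0.14 to 0.19 for Erg/Fli1 and -0.30 to -0.18 for Gata2/Mecom. Pairs that did not overlap numbered 11 to 19 of 45 with 5 libraries, where fewer libraries make separation easier. Same-numbered libraries deviated together with r of 0.14, 0.089 and 0.083 across genes, not all over 0.1, and each library correlated best with its own number, a hint from the data and not from the design. With the replicate number as a block, 0 genes were called, and Zfpm1 stood at -0.25 (SE 0.07, adjusted p = 0.413, limma). Gata1, at 120 to 182 reads per library, and the erythroid genes near 1 TPM are limited most by depth.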
